A study of Rattus norvegicus with 17 samples.

Results

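Genes of macrophages and related myeloid cells, 40 in all, were followed in the left kidneys of rats that had lost kidney tissue to surgery 6 weeks earlier. The genes were chosen by name, with earlier results of these data known. Each was read from the row of the deposited gene tables that carries its symbol. Both tables listed a feature for all 40 genes among 126306 features, of which 31195 carried a single gene name. Macrophages are phagocytes that arise from blood monocytes or from cells seeded before birth, and the kidney holds a resident population of them in its interstitium. They bind antibody-coated or damaged material through Fc, lectin and scavenger receptors, digest it in lysosomes and make oxidants with the phagocyte NADPH oxidase. Their numbers are known to increase in injured and scarred kidneys, and the growth factors CSF1 and IL-34, both bound by the receptor encoded by Csf1r, keep them alive.

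The animals were 17 male Sprague Dawley rats fed a Dyets chow labelled 0.4%, operated on at 10 weeks of age. The 5/6Nx group (n = 6) lost the whole right kidney and 2/3 of the left one, so that the remnant was its only kidney tissue. The 1/3Nx group (n = 6) lost 2/3 of the left kidney only, with the right one in place, and sham rats (n = 5) kept both. RNA came from whole left kidney tissue, frozen at collection. In such bulk samples, more cells of a type and more RNA per cell cannot be told apart.

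Levels are FPKM, fragments per kilobase of a feature and per M mapped fragments (M for mega), and the authors gave 1 value per group, so that no SD can be set beside a level. Libraries held 59.0 to 104 M reads (mega) in 5/6Nx, 59.7 to 83.0 M in 1/3Nx and 66.1 to 78.5 M in sham. The share of reads mapped was 62.6% to 90.5% in 5/6Nx, 87.1% to 90.1% in 1/3Nx and 84.8% to 89.6% in sham, and in 5/6Nx replicates 3 and 5 lay lowest, at 62.6% and 77.2%. Both entered the 5/6Nx group values, as far as library ranges left in the tables show, and values without them could not be had. The same sham rats stood in both tables on different scales. For 32 of these genes with at least 1 FPKM in sham, the sham value of the 1/3Nx table was 1.99 to 2.02 times that of the 5/6Nx table, so levels are compared within a table only. A gene was called changed when the q-value in the authors' deposited table, their p-value adjusted over all features they tested, was under 0.05. Effects are given for genes whose mean FPKM over the 2 groups of a table was 1 or more.

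In 1/3Nx kidneys most of the 40 genes rose. Of 34 genes with a mean FPKM of 1 or more, 26 were higher in 1/3Nx than in sham, 1 was lower and 7 were not called in the authors' deposited table. Over all 11639 features with a single name and the same FPKM minimum, 5.40% were called higher and 2.98% lower, and over all tested features 6.40% were called in either direction. The median log2 fold change of the 34 genes was 1.26, against 0.01 for those 11639 features. Of the 34 genes, 2 (Mrc1 and Fcgr2b) reached the minimum through the 1/3Nx value alone. Among the 32 with at least 1 FPKM in sham as well, 24 were called higher, where 4.21% of features so filtered were. The gene just inside the minimum was Mrc1, with a mean of 1.88 FPKM, and the one just outside was Msr1, with 0.607 FPKM.

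In 5/6Nx kidneys most values were higher as well, but few passed the test. Of 32 genes with a mean FPKM of 1 or more, 29 had a higher value in 5/6Nx than in sham and 3 a lower one. The authors' deposited table called 3 of them higher (Clec10a, Trem2 and Cd86), 0 lower and did not call 29, and 3 genes had a p-value under 0.05 before adjustment. Of 11512 single-name features with the same minimum, 7.18% were called higher and 0.0869% lower, so that the share of these genes called, 3 of 32, was near the background. Over all tested features 58.0% were called, because the table holds 58038 called features with no gene name and 0 FPKM in sham, 96.3% of its calls. The median log2 fold change of the 32 genes was 1.04, against -0.08 for the 11512 features. Of the 32 genes, 5 (Gpnmb, Trem2, Fcgr2a, Ptprc and Lilrb4) reached the minimum through the 5/6Nx value alone. With at least 1 FPKM in sham also required, 2 of 27 genes were called higher, where 1.63% of features were. When q was computed again over single-name features only, none of these genes was called in 5/6Nx, where 3.60% of features were called higher, while 25 were in 1/3Nx, where 5.92% were. Ptprc was just inside the minimum, with a mean of 1.11 FPKM, and Fcgr2b just outside, with 0.991 FPKM.

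**Figure D1:**
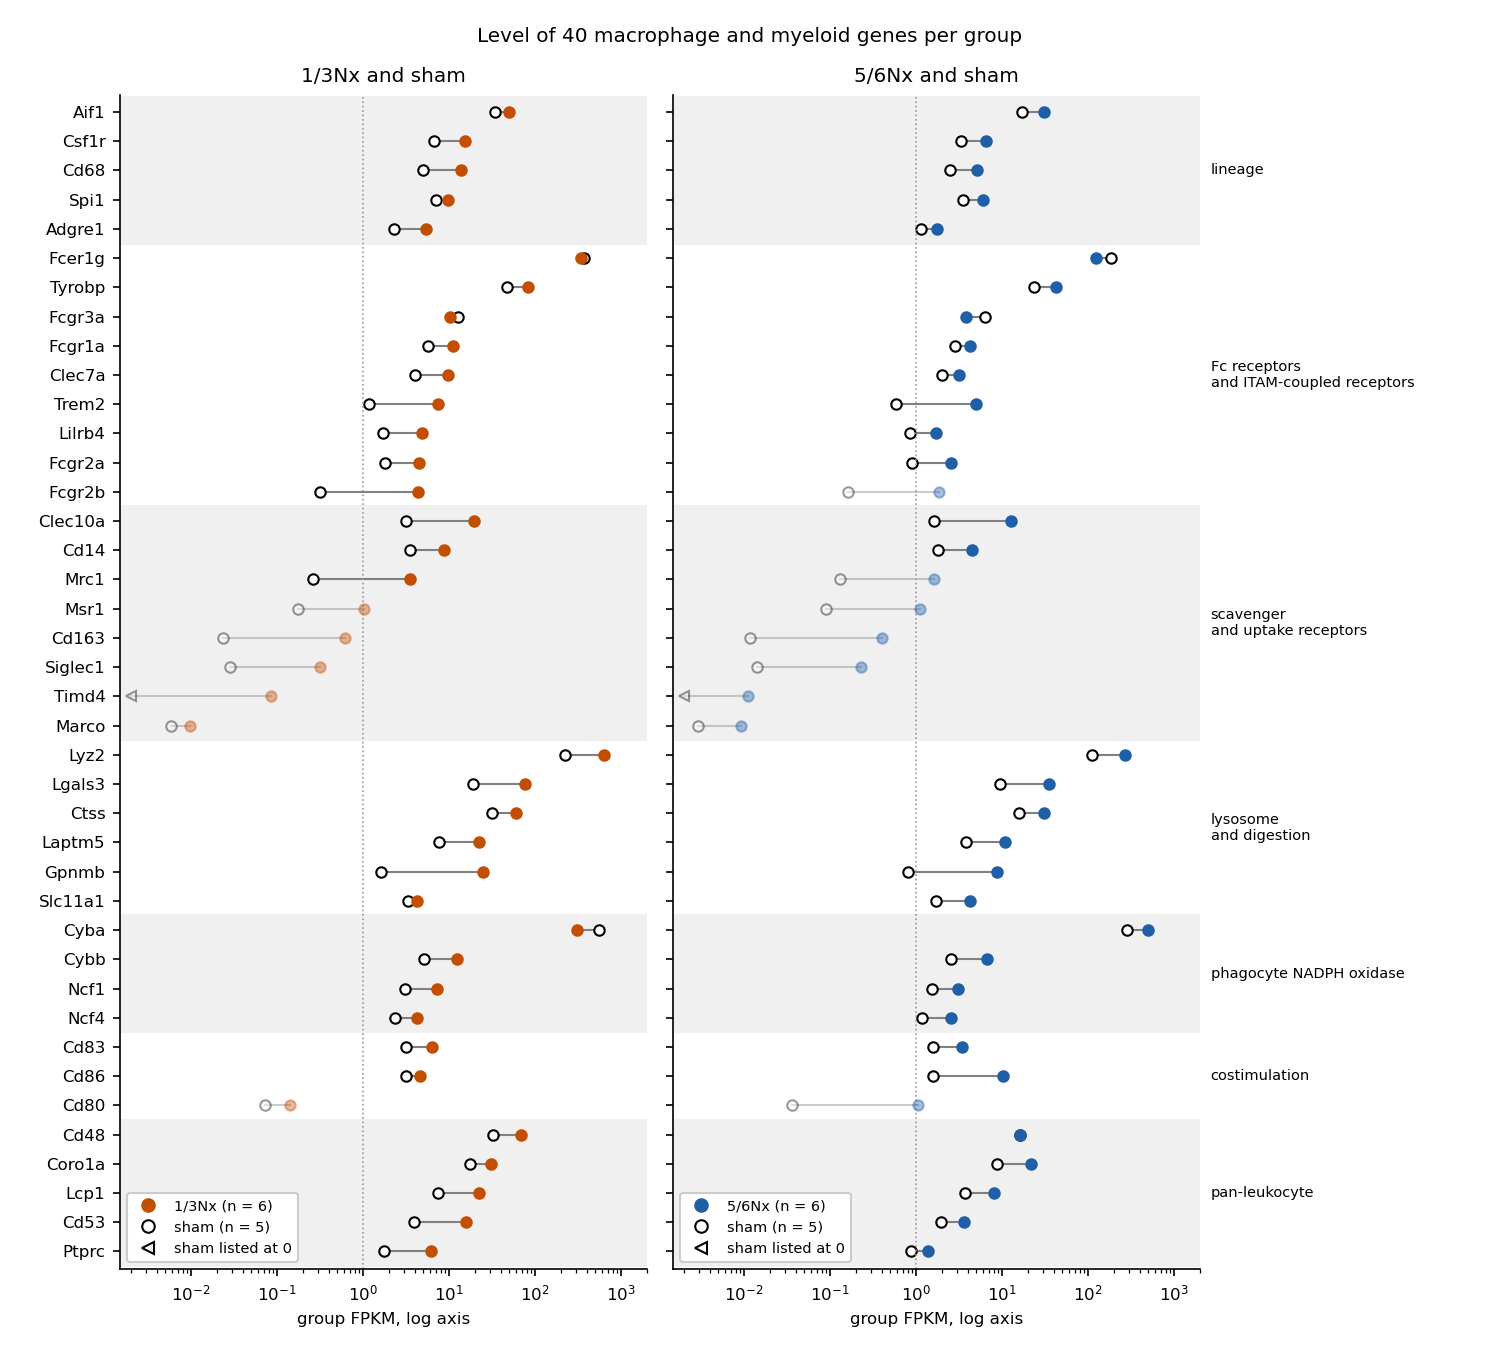
Group FPKM (log axis) of the 40 genes in 1/3Nx or 5/6Nx kidneys (filled) and sham kidneys (open), by role; pale points have a mean under 1 FPKM, the dotted line marks 1 FPKM and triangles mark genes listed at 0 in sham. Most filled points lie right of the open ones in both panels; Cyba, at 307 FPKM in 1/3Nx and 560 FPKM in sham, lies left of its sham value in the left panel only.

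Genes that mark the macrophage lineage rose in 1/3Nx by about as much as the whole group, with 3 of 5 called. Cd68, a lysosomal glycoprotein of macrophages, had 13.9 FPKM in 1/3Nx kidneys, against 4.96 FPKM in sham kidneys (log2 fold change 1.49 and q = 0.00183 in the authors' deposited table). Csf1r, the receptor for CSF1 and IL-34, had 15.2 FPKM in 1/3Nx, against 6.65 FPKM in sham (1.19 on the log2 scale, q = 0.00183 in the authors' deposited table). Adgre1, which encodes the F4/80 antigen, had 5.39 FPKM in 1/3Nx, against 2.29 FPKM in sham (1.24, q = 0.00183 in the authors' deposited table). All 3 levels were more than doubled, and this q is the smallest that the table holds, shared by every gene at its p-value floor of 5e-05. Of the 40 genes, 20 sat at that floor in 1/3Nx and 0 in 5/6Nx. Aif1, which encodes the actin-bundling protein IBA1, had 49.6 FPKM in 1/3Nx, against 34.5 FPKM in sham, and was not called (0.52, q = 0.273 in the authors' deposited table).

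In 5/6Nx none of the 5 lineage genes passed, and all 5 values were higher than in sham. Cd68 had 5.17 FPKM in 5/6Nx kidneys, against 2.47 FPKM in sham kidneys (log2 fold change 1.06 and q = 0.301 in the authors' deposited table). Csf1r had 6.49 FPKM in 5/6Nx, against 3.31 FPKM in sham, and Adgre1 had 1.75 FPKM in 5/6Nx, against 1.14 FPKM in sham. Their q-values were 0.359 and 0.693 in the authors' deposited table. Thus Cd68 and Csf1r had about double the sham level there too, without passing. The authors' deposited tables list Cd68 at 56268719 to 56270640 on chromosome 10, Csf1r at 56414487 to 56458300 on chromosome 18 and Adgre1 at 9431859 to 9585865 on chromosome 9. The processing notes name the build rn5, yet the tables hold sequence names of a later assembly, so these positions cannot be tied to 1 build.

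Spi1 encodes PU.1, the ETS-family factor that many myeloid promoters are known to need. It had 9.86 FPKM in 1/3Nx, against 7.03 FPKM in sham (log2 fold change 0.49 and q = 0.555 in the authors' deposited table). In the 5/6Nx table it had 5.94 FPKM in 5/6Nx, against 3.52 FPKM in sham (0.75, q = 0.490 in the authors' deposited table). So the factor itself did not pass in either comparison, although 26 genes of the group did in 1/3Nx. PU.1 binds purine-rich sites with the core GAGGAA, and this core was searched on both strands (its reverse complement is TTCCTC) in RefSeq promoters of the GRCr8 build, from 250 bases before to 50 bases after each gene's start. Of the 40 genes, 27 matched by symbol, with 29 promoters. The core was in 18 of these 29 (62.1%) and in 27.6% of all 33469 promoters of that length. A longer form that contains it, GAGGAAGT (reverse ACTTCCTC), was in 3 of 29 (10.3%) and in 2.42% of all promoters. A match describes letters in this window and is not a measured binding site. The 3 promoters with the longer form are printed with that of Csf1r, the defining receptor gene of the lineage, 5′ to 3′ on the gene's strand; capitals mark the core GAGGAA or TTCCTC.
Csf1r (chr18:56834129-56834428, plus strand): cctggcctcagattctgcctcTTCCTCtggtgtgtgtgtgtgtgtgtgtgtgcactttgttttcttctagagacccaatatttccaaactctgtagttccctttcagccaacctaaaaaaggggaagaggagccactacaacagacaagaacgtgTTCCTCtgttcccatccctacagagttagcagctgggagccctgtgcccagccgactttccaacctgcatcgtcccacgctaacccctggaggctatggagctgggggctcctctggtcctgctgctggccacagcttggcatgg
Cd53 (chr2:197087847-197088146, minus strand): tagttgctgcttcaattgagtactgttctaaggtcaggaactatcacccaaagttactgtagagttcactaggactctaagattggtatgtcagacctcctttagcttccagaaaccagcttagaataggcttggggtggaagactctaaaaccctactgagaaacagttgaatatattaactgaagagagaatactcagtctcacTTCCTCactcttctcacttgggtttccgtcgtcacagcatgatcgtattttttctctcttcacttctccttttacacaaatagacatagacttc
Ctss (chr2:185775146-185775445, plus strand): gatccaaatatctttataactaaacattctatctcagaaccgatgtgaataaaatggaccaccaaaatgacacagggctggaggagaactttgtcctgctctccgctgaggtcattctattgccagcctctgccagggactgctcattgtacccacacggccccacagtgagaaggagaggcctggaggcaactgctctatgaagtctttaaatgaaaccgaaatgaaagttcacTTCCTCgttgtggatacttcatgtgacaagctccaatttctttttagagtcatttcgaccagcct
Fcgr3a (chr13:85782386-85782685, plus strand): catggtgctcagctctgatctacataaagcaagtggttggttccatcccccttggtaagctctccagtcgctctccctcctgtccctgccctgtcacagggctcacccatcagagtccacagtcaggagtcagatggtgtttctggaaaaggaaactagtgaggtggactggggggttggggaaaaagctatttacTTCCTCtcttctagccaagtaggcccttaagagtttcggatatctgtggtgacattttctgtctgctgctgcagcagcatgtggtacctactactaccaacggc
The Csf1r window holds the core at 2 places and the other 3 windows at 1 place each. These 4 genes did not move alike: Csf1r, Cd53 and Ctss were called higher in 1/3Nx, and Fcgr3a had a lower value than sham in both tables and was called in neither. The windows of Cd48, Cd83, Clec7a, Coro1a and Ncf1 held no core, and these genes were called higher in 1/3Nx too. That of Cyba, called lower in 1/3Nx, held none either. Whether the core goes with the change of a gene was not tested.

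Among the Fc receptors and the receptors that signal through ITAM adaptors, 7 of 9 measured genes were called higher in 1/3Nx. In 5/6Nx 1 of 8 was called higher, and 6 of 8 had higher values. Trem2, a lipid-sensing receptor of phagocytes that pairs with the adaptor TYROBP, was called higher in both. It had 7.55 FPKM in 1/3Nx, against 1.18 FPKM in sham (log2 fold change 2.67 and q = 0.00183 in the authors' deposited table). In the other table it had 5.01 FPKM in 5/6Nx, against 0.592 FPKM in sham (3.08, q = 0.0162 in the authors' deposited table). These are ratios of 6.37 in 1/3Nx and 8.47 in 5/6Nx. The q for 5/6Nx became 0.169 when computed over single-name features only.

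Fcgr2b, the inhibitory Fc receptor for IgG, had 4.37 FPKM in 1/3Nx, against 0.319 FPKM in sham (log2 fold change 3.77 and q = 0.00183 in the authors' deposited table). In 5/6Nx it had 1.82 FPKM, against 0.160 FPKM in sham. That 5/6Nx mean is just below the minimum, and the feature was called (q = 0.000361 in the authors' deposited table and 0.00605 over single-name features). Fcgr3a, an activating Fc receptor for IgG, had lower values than sham in both tables. It had 10.4 FPKM in 1/3Nx, against 12.7 FPKM in sham, and 3.76 FPKM in 5/6Nx, against 6.35 FPKM in sham. Its log2 fold changes of -0.30 and -0.76 were not called (q = 0.767 and 0.497 in the authors' deposited tables). Both features are listed over the same interval, 89327793 to 89433815 on chromosome 13, and how the authors divided fragments between these related, neighbouring genes is not stated, so the split between them is uncertain.

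Fcgr1a, the high-affinity IgG receptor, had 11.0 FPKM in 1/3Nx, against 5.71 FPKM in sham (log2 fold change 0.95 and q = 0.0242 in the authors' deposited table). Clec7a, the beta-glucan receptor dectin-1, had 9.85 FPKM in 1/3Nx, against 4.07 FPKM in sham (1.27, q = 0.00183 in the authors' deposited table). Lilrb4, an inhibitory receptor, had 4.92 FPKM in 1/3Nx, against 1.72 FPKM in sham (1.52, q = 0.0104 in the authors' deposited table). All 3 were thus called higher in 1/3Nx, at 1.94 to 2.86 times the sham level. In 5/6Nx their values were 1.48 to 2.01 times the sham level and did not pass. Fcgr2a shares its feature with a second name, LOC100911825; that feature had 4.54 FPKM in 1/3Nx, against 1.81 FPKM in sham (1.33, q = 0.0162 in the authors' deposited table), and 2.55 FPKM in 5/6Nx, against 0.901 FPKM in sham (1.50, q = 0.0912).

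The adaptors below these receptors were among the most abundant transcripts of the group. Tyrobp, the adaptor of TREM2, had 83.4 FPKM in 1/3Nx, against 46.9 FPKM in sham (log2 fold change 0.83 and q = 0.0143 in the authors' deposited table). It had 42.8 FPKM in 5/6Nx, against 23.5 FPKM in sham (0.87, q = 0.406 in the authors' deposited table). The size of the gene-level difference was thus nearly equal in both tables, and only the 1/3Nx value passed. The transcript named Tyrobp had 62.9 FPKM in 1/3Nx, against 30.3 FPKM in sham (1.06, q = 0.0471 in the authors' deposited isoform table). It had 18.9 FPKM in 5/6Nx, against 15.1 FPKM in sham (0.32, q = 0.880), and held 44.1% of the feature's FPKM in 5/6Nx and 64.5% in sham. The near equality therefore did not hold for the named transcript. Fcer1g, the common Fc receptor gamma chain, lies in a feature that carries a second gene name, so its gene-level value is not its own. In the isoform table, the transcript named Fcer1g had 70.0 FPKM in 1/3Nx, against 39.7 FPKM in sham, and 24.0 FPKM in 5/6Nx, against 19.7 FPKM in sham. Neither was called (q = 0.999 and 0.884 in the authors' deposited isoform tables).

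Of the 8 scavenger and uptake receptors, 3 were measured in 1/3Nx and all 3 were called higher, and 1 of 2 was in 5/6Nx. Clec10a, a galactose-type lectin of macrophages and dendritic cells, had 19.8 FPKM in 1/3Nx, against 3.21 FPKM in sham (log2 fold change 2.62 and q = 0.00183 in the authors' deposited table). It was also called in the other table, with 12.5 FPKM in 5/6Nx, against 1.60 FPKM in sham (2.97, q = 0.0189 in the authors' deposited table), and lost that call with q computed over single-name features (q = 0.187). Mrc1, the mannose receptor CD206, had 3.49 FPKM in 1/3Nx, against 0.260 FPKM in sham (3.74, q = 0.00183 in the authors' deposited table). Mrc1 was thus 13.4 times the sham level in 1/3Nx. In 5/6Nx it had 1.61 FPKM, against 0.129 FPKM in sham, below the minimum. Cd14, the coreceptor for bacterial lipopolysaccharide, had 8.84 FPKM in 1/3Nx, against 3.56 FPKM in sham (1.31, q = 0.00183 in the authors' deposited table). In 5/6Nx it had 4.45 FPKM, against 1.78 FPKM in sham (1.33, q = 0.285 in the authors' deposited table), so the ratio was 2.48 in 1/3Nx and 2.51 in 5/6Nx and the call differed.

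The remaining uptake receptors had a mean under 1 FPKM, so their levels are given with any call the authors made. Cd163, the receptor for haemoglobin bound to haptoglobin, had 0.611 FPKM in 1/3Nx, against 0.0235 FPKM in sham. In 5/6Nx it had 0.407 FPKM, against 0.0117 FPKM in sham. It was called higher in 1/3Nx (q = 0.0369) and not in 5/6Nx (q = 0.0564) by the authors' deposited tables. Msr1, scavenger receptor class A, had 1.04 FPKM in 1/3Nx, against 0.178 FPKM in sham, and 1.10 FPKM in 5/6Nx, against 0.0886 FPKM in sham. It was called higher in both (q = 0.00183 in 1/3Nx and 0.00327 in 5/6Nx, authors' deposited tables), and its 5/6Nx q over single-name features was 0.0458. Siglec1, the sialic acid receptor CD169, had 0.318 FPKM in 1/3Nx, against 0.0286 FPKM in sham, and 0.231 FPKM in 5/6Nx, against 0.0142 FPKM in sham. The values of Siglec1, which the authors' tables did not test, were also higher after surgery. Marco stayed under 0.01 FPKM in all groups, and Timd4, a phosphatidylserine receptor of resident macrophages, was listed at 0 in sham, with 0.0862 FPKM in 1/3Nx and 0.0110 FPKM in 5/6Nx. Cd163, Mrc1 and Timd4 are used as markers of tissue-resident or alternatively activated macrophages, and their sham levels here were all under 0.3 FPKM.

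Genes of the lysosome and of digestion held the highest ratio among the measured genes in 1/3Nx. Gpnmb, a lysosome-associated glycoprotein of lipid-laden phagocytes, had 25.1 FPKM in 1/3Nx, against 1.62 FPKM in sham (log2 fold change 3.95 and q = 0.00183 in the authors' deposited table). That is 15.5 times the sham level. In the other table it had 8.68 FPKM in 5/6Nx, against 0.809 FPKM in sham (3.42, q = 0.0895 in the authors' deposited table), which was not called. It reached the minimum there through the 5/6Nx value alone, and among genes with at least 1 FPKM in sham the highest 5/6Nx ratio was that of Clec10a. Gpnmb is listed at 78694446 to 78715683 on chromosome 4.

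Lyz2, the lysozyme of myeloid cells, was the most abundant of the 40 transcripts in 1/3Nx kidneys, with 630 FPKM in 1/3Nx, against 223 FPKM in sham (log2 fold change 1.50 and q = 0.00183 in the authors' deposited table). It had 269 FPKM in 5/6Nx, against 111 FPKM in sham (1.27, q = 0.549 in the authors' deposited table). Lgals3, which encodes the lectin galectin-3, had 76.7 FPKM in 1/3Nx, against 19.2 FPKM in sham (2.00, q = 0.00183 in the authors' deposited table). Galectin-3 transcripts were thus 4.0 times the sham level in 1/3Nx. In 5/6Nx Lgals3 had 35.0 FPKM, against 9.57 FPKM in sham (1.87, q = 0.285 in the authors' deposited table). Laptm5, a lysosomal membrane protein of blood cells, had 22.2 FPKM in 1/3Nx, against 7.72 FPKM in sham, and Ctss, the elastin-degrading cathepsin S, had 59.8 FPKM in 1/3Nx, against 31.7 FPKM in sham. Both were called higher in 1/3Nx (q = 0.00183 and 0.00711 in the authors' deposited table). Laptm5 had 10.7 FPKM in 5/6Nx, against 3.85 FPKM in sham, and Ctss had 30.7 FPKM in 5/6Nx, against 15.9 FPKM in sham, and neither passed. Slc11a1, the phagosomal metal transporter NRAMP1, had 4.30 FPKM in 1/3Nx, against 3.39 FPKM in sham, and 4.24 FPKM in 5/6Nx, against 1.69 FPKM in sham, and passed in neither.

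Subunit genes of the phagocyte NADPH oxidase moved in opposite directions in 1/3Nx. Cybb, the catalytic subunit gp91phox, had 12.5 FPKM in 1/3Nx, against 5.14 FPKM in sham (log2 fold change 1.28 and q = 0.00183 in the authors' deposited table). Ncf1, the organizer p47phox, had 7.18 FPKM in 1/3Nx, against 3.06 FPKM in sham (1.23, q = 0.00183 in the authors' deposited table). Cyba encodes p22phox, the membrane partner of gp91phox and also of the oxidases NOX1 and NOX4, the last of which the kidney tubule makes. Cyba fell, with 307 FPKM in 1/3Nx, against 560 FPKM in sham (-0.87, q = 0.00711 in the authors' deposited table). It was the only one of the 34 genes called lower, and its sham level was far above that of Cybb. Ncf4, which encodes p40phox, had 4.24 FPKM in 1/3Nx, against 2.37 FPKM in sham, and was not called (0.84, p = 0.0222 and q = 0.183 in the authors' deposited table).

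In 5/6Nx all 4 oxidase genes had higher values and none passed. Cyba there had 491 FPKM in 5/6Nx, against 281 FPKM in sham (log2 fold change 0.80 and q = 0.686 in the authors' deposited table). Its sign was therefore opposite in the 2 tables, and the difference between them was not tested. Cybb had 6.68 FPKM in 5/6Nx, against 2.55 FPKM in sham (1.39, q = 0.451 in the authors' deposited table). Both Cyba values came from 1 named transcript that holds all of the feature, listed at 55249615 to 55257876 on chromosome 19.

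Of the costimulatory genes, Cd86 and Cd83 passed in different tables. Cd86, a ligand of CD28 on T cells, had 10.2 FPKM in 5/6Nx, against 1.59 FPKM in sham (log2 fold change 2.68 and q = 0.00922 in the authors' deposited table), and its q over single-name features was 0.111. In 1/3Nx it had 4.62 FPKM, against 3.19 FPKM in sham (0.53, q = 0.367 in the authors' deposited table). Cd83, a marker of mature antigen-presenting cells, had 6.41 FPKM in 1/3Nx, against 3.18 FPKM in sham (1.01, q = 0.0186 in the authors' deposited table). In 5/6Nx it had 3.42 FPKM, against 1.59 FPKM in sham (1.11, q = 0.462 in the authors' deposited table). Cd80, the other CD28 ligand, had 0.143 FPKM in 1/3Nx, against 0.0725 FPKM in sham, and 1.04 FPKM in 5/6Nx, against 0.0360 FPKM in sham; the 5/6Nx value was called (q = 0.00599 in the authors' deposited table) but not over single-name features (q = 0.0769). No test set the surgeries against each other, so that whether Cd86 differs between 5/6Nx and 1/3Nx was not tested.

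The 5 genes shared by all leukocytes rose in 1/3Nx, all of them called. Ptprc, the leukocyte common antigen CD45, had 6.25 FPKM in 1/3Nx, against 1.74 FPKM in sham (log2 fold change 1.85 and q = 0.00183 in the authors' deposited table). Cd53, a tetraspanin, had 15.6 FPKM in 1/3Nx, against 3.90 FPKM in sham (2.00, q = 0.00183 in the authors' deposited table). Lcp1, the actin-bundling protein L-plastin, had 22.3 FPKM in 1/3Nx, against 7.41 FPKM in sham, and Cd48, an adhesion protein, had 69.4 FPKM in 1/3Nx, against 32.5 FPKM in sham. Coro1a, which binds actin, had 31.1 FPKM in 1/3Nx, against 17.4 FPKM in sham (0.84, q = 0.00598 in the authors' deposited table). The 5 ratios ran between 1.79 and 4.0. In 5/6Nx the ratios ran between 0.994 and 2.50 and none passed; Ptprc had 1.37 FPKM in 5/6Nx, against 0.862 FPKM in sham, and Cd48 had 16.1 FPKM in 5/6Nx, against 16.2 FPKM in sham.

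**Figure D2:**
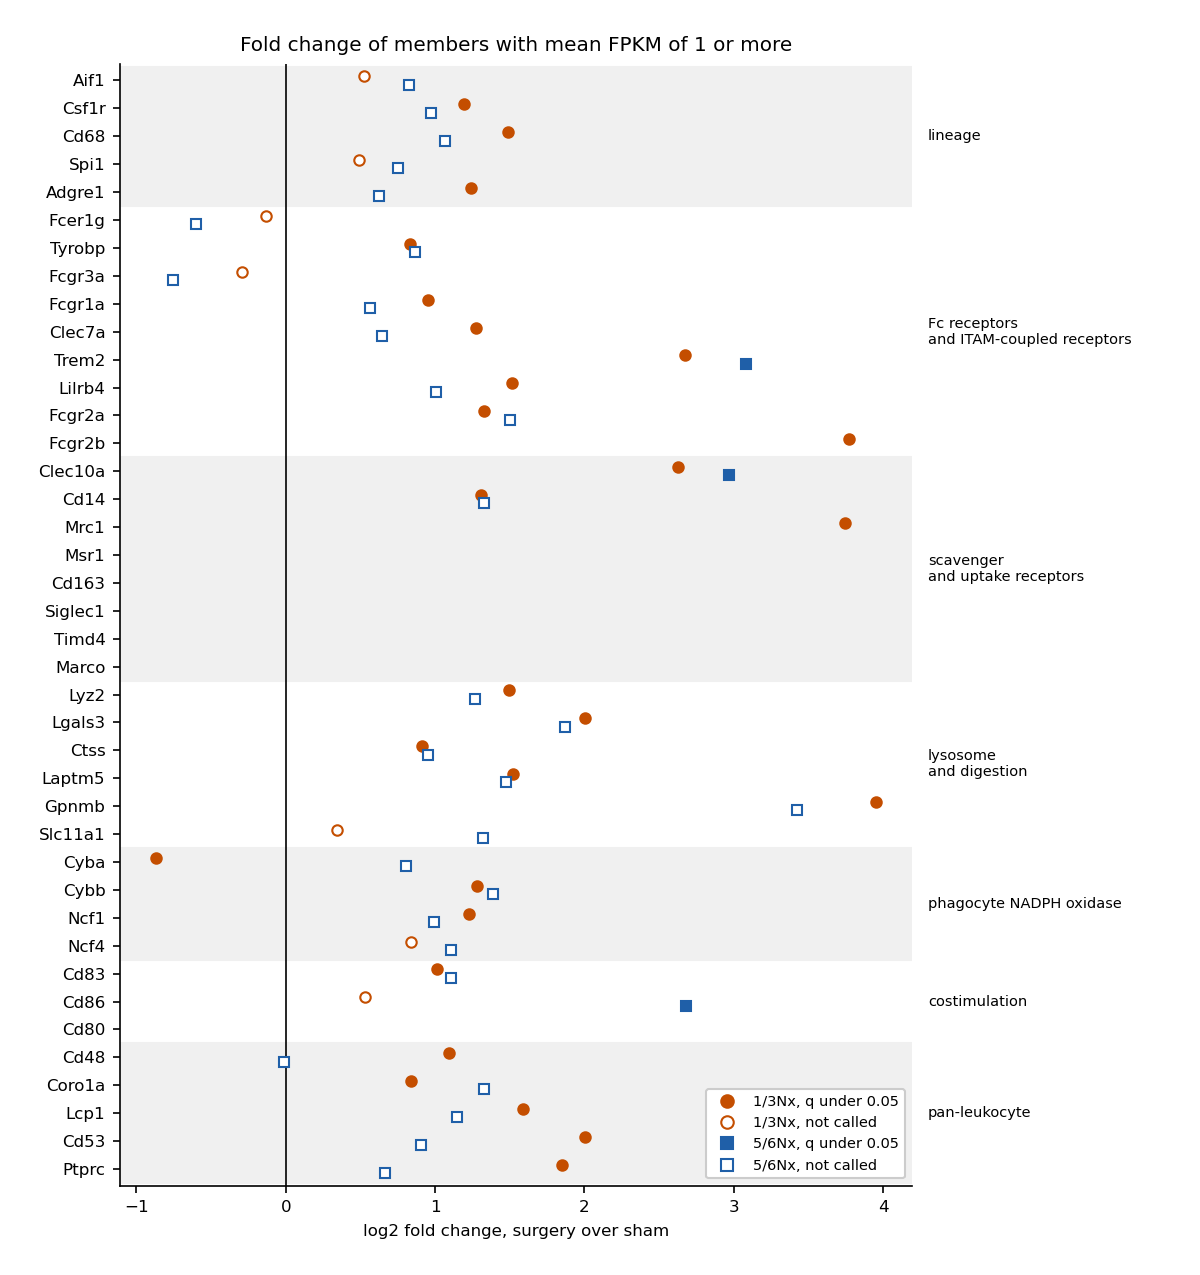
Log2 fold change of surgery over sham for genes with a mean FPKM of 1 or more, by role, for 1/3Nx (circles) and 5/6Nx (squares), filled where q was under 0.05 in the authors' deposited tables. Filled circles are many and filled squares are 3 (Trem2, Clec10a and Cd86), while most open squares lie in the same range of about 0.5 to 2 as the circles.

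Fold changes of a given size came with different p-values in the 2 tables. Between log2 fold changes of 1 and 2 lay 15 genes in 1/3Nx, of which 15 were called, with a median p of 5e-05 in the authors' deposited table. In that same range lay 13 genes in 5/6Nx, of which 0 were called, with a median p of 0.283 (0.0540 to 0.482) in the authors' deposited table. The same held for all single-name features in that range: 67.4% of 525 were called in 1/3Nx and 2.71% of 664 in 5/6Nx. A gene that missed the threshold in 5/6Nx is therefore not shown to be level with sham there. The highest p still called was 0.0290 in 5/6Nx and 0.0032 in 1/3Nx.

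**Figure D3:**
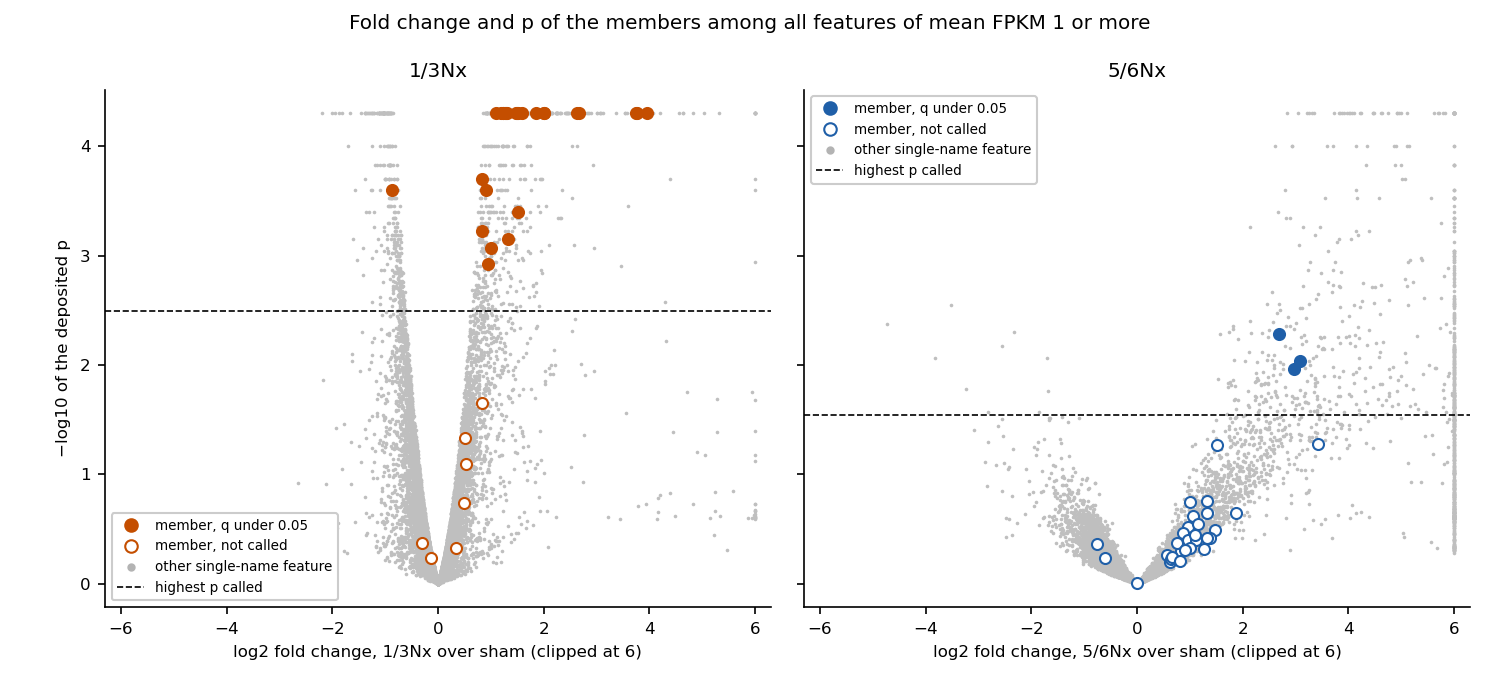
Log2 fold change (values beyond 6 drawn at 6) and -log10 of the deposited p for genes of the group (coloured, filled where called) over all other single-name features with a mean FPKM of 1 or more (grey); the dashed line is the highest p called. In 1/3Nx genes crowd at the p-value floor of 5e-05, whereas in 5/6Nx genes of like fold change lie at a median p of 0.283.

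Single transcripts gave a thinner picture. The isoform tables name 73 transcripts after the 40 genes, of which 36 were measured in 1/3Nx and 29 in 5/6Nx. In 1/3Nx, 17 were called higher and 1 lower (Cyba), where 2.57% of all named isoforms with the same minimum were called higher. In 5/6Nx 1 was called higher, a Cd86 transcript with 9.80 FPKM in 5/6Nx, against 1.14 FPKM in sham (log2 fold change 3.11 and q = 0.0369 in the authors' deposited isoform table), where 5.43% of named isoforms were. For some genes the named transcript held little of the feature. That of Cd68 held 32.0% of the feature's FPKM in 1/3Nx and 14.0% in sham, and those of Trem2 and Ctss held at most 1.50% in these groups, the rest being assembled transcripts with no gene name.

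Genes that feed or surround this program were counted from further lists. Of 7 measured growth factor and receptor genes, 1 was called higher in 1/3Nx and 0 of 6 in 5/6Nx. Among single-name features with the same minimum, 5.40% were called higher in 1/3Nx and 7.18% in 5/6Nx. This background applies to the lists that follow as well. The monocyte chemokine Ccl2 had 14.0 FPKM in 1/3Nx, against 3.82 FPKM in sham (log2 fold change 1.87 and q = 0.00183 in the authors' deposited table). Csf1 had 6.52 FPKM in 1/3Nx, against 3.99 FPKM in sham (0.71, q = 0.135 in the authors' deposited table), and Il34 had 29.3 FPKM in 1/3Nx, against 35.5 FPKM in sham (-0.28, q = 0.732). Neither ligand of the Csf1r receptor passed in 5/6Nx (q = 0.645 and 0.708 in the authors' deposited table).

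Myeloid transcription factors were called higher in 5 of 13 cases in 1/3Nx (list median 0.85) and in 0 of 9 in 5/6Nx (0.13). Irf8, a monocyte factor, had 10.6 FPKM in 1/3Nx, against 4.69 FPKM in sham (log2 fold change 1.17 and q = 0.00183 in the authors' deposited table), and Ikzf1 and Runx1 were also called. Of 11 kinases and adaptors below ITAM receptors, 1 was called in 1/3Nx, the adaptor Lcp2 with 2.26 FPKM in 1/3Nx, against 0.838 FPKM in sham, although all 11 had higher values and 9 a p under 0.05 in the authors' deposited table. In 5/6Nx 0 of 5 were called and 4 had higher values. Of 4 other oxidase genes, Rac2, the small GTPase of the phagocyte oxidase, was called higher in 1/3Nx (1.07, q = 0.00183 in the authors' deposited table). In 5/6Nx Noxo1, an organizer of NOX1, was called among 3, with 2.03 FPKM in 5/6Nx, against 0.0340 FPKM in sham. It reached the minimum through the 5/6Nx value alone and lost its call with q over single-name features (q = 0.198).

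General lysosomal genes, which all cells use, were counted apart from those of phagocytes. Of 14 lysosomal hydrolases and membrane proteins 1 was called higher in 1/3Nx, with a list median of 0.01. That count is near the background, where 5.40% of single-name features with the same minimum were called higher. The called gene was the collagen-degrading cathepsin Ctsk (log2 fold change 1.70 and q = 0.00183 in the authors' deposited table). In 5/6Nx 0 of 14 were called, with a list median of 0.33. The further surface and secreted genes of macrophages were called higher in 8 of 17 cases in 1/3Nx (median 0.93). In 5/6Nx 0 of 14 were called and 12 had higher values (median 0.89). The complement C1q chains C1qa, C1qb and C1qc had 45.5, 42.0 and 68.5 FPKM in 1/3Nx, against 23.0, 16.6 and 34.1 FPKM in sham, and all 3 were called. They had 29.7, 27.6 and 45.1 FPKM in 5/6Nx, against 11.5, 8.28 and 17.1 FPKM in sham, and were not. Folr2, the folate receptor of resident macrophages, had 6.84 FPKM in 1/3Nx, against 1.26 FPKM in sham (2.44, q = 0.00183 in the authors' deposited table). Spp1, which encodes osteopontin and is also made by tubule cells, had 1729 FPKM in 1/3Nx, against 407 FPKM in sham, and was called (2.09, q = 0.00183 in the authors' deposited table). It had 1492 FPKM in 5/6Nx, against 203 FPKM in sham, and was not called there (2.88, q = 0.134 in the authors' deposited table). Itgb2, the beta chain of leukocyte integrins, was not called in 1/3Nx (1.01, q = 0.556 in the authors' deposited table).

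Products of activated macrophages were called higher in 4 of 6 cases in 1/3Nx (median 1.13) and in 1 of 5 in 5/6Nx (median 2.12). All 6 values in 1/3Nx and all 5 in 5/6Nx were higher than in sham. Of the genes named here, Mmp12 in both comparisons and Il1b in 5/6Nx reached the minimum through the surgery value alone. Their direction was thereby fixed, and the 5/6Nx median of 2.12 is the value of Il1b. Of single-name features with the same minimum, 5.40% were called higher in 1/3Nx and 7.18% in 5/6Nx. Mmp12, the macrophage elastase, had 9.79 FPKM in 1/3Nx, against 0.720 FPKM in sham (log2 fold change 3.76 and q = 0.00183 in the authors' deposited table). Hmox1, the haem-degrading enzyme, was called in both tables, and its 5/6Nx call was lost with q over single-name features (q = 0.339). It had 11.8 FPKM in 1/3Nx, against 2.88 FPKM in sham (2.04, q = 0.00183 in the authors' deposited table), and 15.2 FPKM in 5/6Nx, against 1.44 FPKM in sham (3.41, q = 0.0461). Il1b, the inflammatory cytokine, was called in 1/3Nx with 3.96 FPKM in 1/3Nx, against 1.54 FPKM in sham, and Tgfb1, which drives matrix production, with 18.6 FPKM in 1/3Nx, against 10.0 FPKM in sham.

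**Figure D4:**
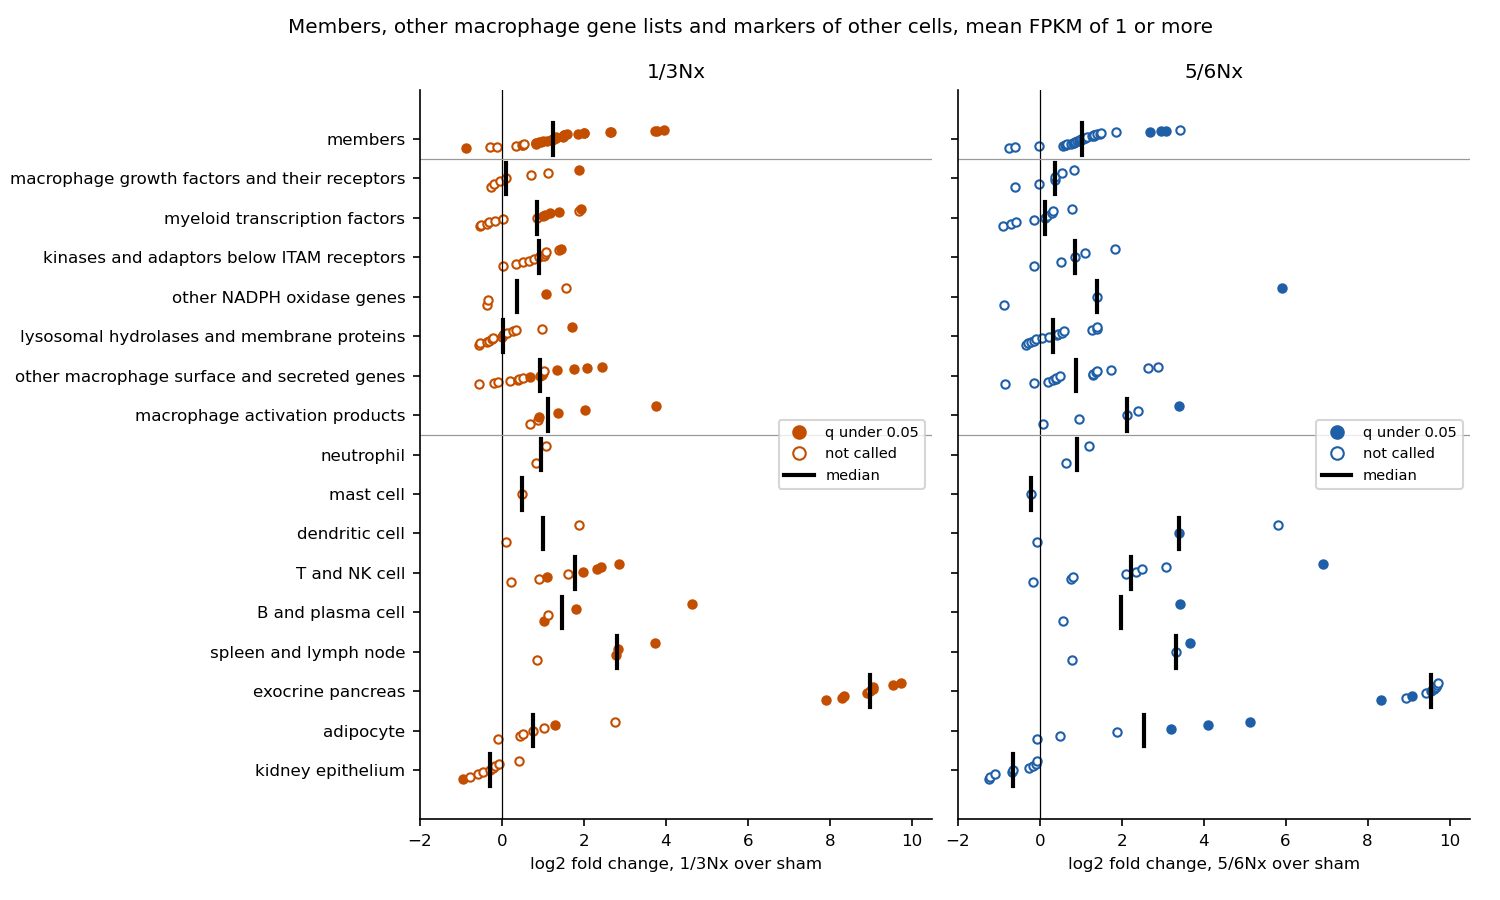
Log2 fold change of each gene with a mean FPKM of 1 or more in the 40-gene group (top), 7 further macrophage lists and 9 marker lists of other cells, for 1/3Nx over sham (left) and 5/6Nx over sham (right); filled points had q under 0.05 and bars are list medians. The group's median is 1.26 in 1/3Nx, below those of T and NK (1.79), B and plasma (1.46) and spleen and lymph node (2.80) markers. In 5/6Nx it is 1.04, below those of activation products (2.12) and other oxidase genes (1.40). Also above it there are T and NK (2.23), B and plasma (1.99), spleen and lymph node (3.32), dendritic cell (3.41) and adipocyte (2.54) markers. Some of these lists hold only 2 or 3 measured genes. Some points, in the group as well, are genes under 1 FPKM in sham that entered through the surgery value alone and could only lie above 0. In 5/6Nx these include Zbtb46, whose value is the dendritic cell median, Ccr7, Klrd1, Cd2, Retn and Noxo1. In 1/3Nx they include Cd3e, Cd2, Lck, Cd79a, Cd79b and Fcer2. Exocrine pancreas markers lie near 9 in both panels.

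Summed marker levels of other cell types also differed between surgery and sham, and the calls behind them were uneven. Pancreatic enzyme genes, from 10 genes that a kidney does not normally make, summed to 942 FPKM in 1/3Nx, against 1.90 FPKM in sham, and to 660 FPKM in 5/6Nx, against 0.948 FPKM in sham, with all 10 higher in both. Spleen and lymph node markers summed to 212 FPKM in 1/3Nx, against 32.2 FPKM in sham, and to 156 FPKM in 5/6Nx, against 16.1 FPKM in sham, 10 and 8 of 10 genes being higher. Of those measured, 8 of 9 pancreatic genes were called in 1/3Nx and 4 of 9 in 5/6Nx, and 3 of 4 spleen and lymph node genes in 1/3Nx and 1 of 3 in 5/6Nx. Ccl21 alone gave 176 FPKM of that 1/3Nx sum and 128 FPKM of that 5/6Nx sum. Tissue of these kinds holds myeloid cells of its own, and its part in the values of the 40 genes was not tested. Markers of T and NK cells summed to 51.3 FPKM in 1/3Nx, against 17.8 FPKM in sham, and to 59.3 FPKM in 5/6Nx, against 8.88 FPKM in sham, with 5 of 8 measured genes called in 1/3Nx and 1 of 8 in 5/6Nx. Klrd1 alone gave 34.2 FPKM in 5/6Nx, and without it the 5/6Nx sum was 2.91 times that of sham, against 6.67 times with it. Those of B and plasma cells summed to 65.7 FPKM in 1/3Nx, against 8.09 FPKM in sham, and to 16.9 FPKM in 5/6Nx, against 4.03 FPKM in sham, with 3 of 4 genes called in 1/3Nx and 1 of 2 in 5/6Nx. Without Jchain the sums were 15.1 FPKM in 1/3Nx, against 6.06 FPKM in sham, and 6.06 FPKM in 5/6Nx, against 3.03 FPKM in sham. Of single-name features with the same minimum, 5.40% were called higher in 1/3Nx and 7.18% in 5/6Nx. Every pancreatic gene counted as measured reached the minimum through the surgery value alone. So did Cd3e, Cd2, Lck, Cd79a, Cd79b and Fcer2 in 1/3Nx, and Klrd1 and Cd2 in 5/6Nx. Leukocyte genes of the group such as Ptprc, Cd53, Cd48 and Coro1a are not particular to myeloid cells.

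Markers of other myeloid cells were at low levels, and calls were counted only for the few that reached the minimum. These were 2 of 11 neutrophil genes, 1 of 9 mast cell genes (Kit), and of 9 dendritic cell genes 2 in 1/3Nx and 3 in 5/6Nx. Only Zbtb46 in 5/6Nx was called among them. Neutrophil markers summed to 8.21 FPKM in 1/3Nx, against 4.18 FPKM in sham, and to 4.03 FPKM in 5/6Nx, against 2.08 FPKM in sham. Neither of the 2 measured was called, and Elane and Fpr1 were at 0 in sham in both tables. Mast cell markers summed to 8.43 FPKM in 1/3Nx, against 4.02 FPKM in sham, and to 3.50 FPKM in 5/6Nx, against 2.00 FPKM in sham, with Tpsab1 and Tpsb2 at 0 in sham. Dendritic cell markers summed to 15.9 FPKM in 1/3Nx, against 8.70 FPKM in sham, and to 10.3 FPKM in 5/6Nx, against 4.35 FPKM in sham. Zbtb46 was called in 5/6Nx, with 2.00 FPKM in 5/6Nx, against 0.189 FPKM in sham, reaching the minimum through the 5/6Nx value alone, and lost that call with q over single-name features (q = 0.291). Each of these sums was 1.75 to 2.37 times its sham value, but Kit and Itgae gave most of the mast and dendritic cell sums in sham. Without Kit, mast cell markers summed to 3.01 FPKM in 1/3Nx, against 0.169 FPKM in sham. In 5/6Nx they summed to 1.85 FPKM, against 0.0843 FPKM in sham. Without Itgae, dendritic cell markers summed to 8.88 FPKM in 1/3Nx, against 2.15 FPKM in sham. In 5/6Nx they summed to 7.21 FPKM, against 1.07 FPKM in sham. Neutrophil ratios without the top gene were 2.14 in 1/3Nx and 1.70 in 5/6Nx. Adipocyte markers summed to 262 FPKM in 1/3Nx, against 127 FPKM in sham, and to 378 FPKM in 5/6Nx, against 63.5 FPKM in sham, with 1 of 7 genes called in 1/3Nx and 3 of 6 in 5/6Nx. The backgrounds were 5.40% and 7.18% of single-name features called higher, and Retn, called in 5/6Nx, entered through the 5/6Nx value alone. Kidney epithelial markers summed to 3614 FPKM in 1/3Nx, against 4689 FPKM in sham, and to 1485 FPKM in 5/6Nx, against 2339 FPKM in sham. Of these, 1 of 9 was called lower in 1/3Nx and 0 of 9 in 5/6Nx, where 2.98% and 0.0869% of single-name features were. FPKM are relative levels, and since sham values differed in scale between the tables they are not plain shares of a library. A smaller epithelial share can raise the other values, and its part in the values of the 40 genes was not tested.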

How the data were processed

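Per the labels' protocols, total RNA was extracted with Trizol and sequenced from both ends on a HiSeq after a stranded total RNA kit; the same text also calls the libraries small RNA, which was not settled. Per the submitters' processing notes, the tools were cutadapt, FastQC, TopHat2 2.1.1, StringTie and Cufflinks 2.2.1, together with the build rn5, and the notes do not say which did what. The authors deposited a gene and an isoform table per surgery, in the layout of Cuffdiff, each with an FPKM for each of its groups, a log2 fold change over sham, a p-value and a q-value, per the file headers. The deposited sequencing summary gives the read count of each library, the percent of its reads mapped and of its bases at quality 30 or more, and a quality score. No column of single libraries was in the tables, so the planned limma test was not run and the authors' q under 0.05 is used.

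Per gene table, 628 features with several names had their later cells shifted to the right and were realigned on the test status word. A Benjamini-Hochberg adjustment of the deposited p-values over the tested features returned their q-values to within 5.25e-07. A symbol on several rows was read from the row of highest mean FPKM. Genes described are all those called in either table with a mean FPKM of 1 or more and the lineage markers, and, of each further list (16 lists, 184 genes), up to 4 with the smallest p plus a few always given; a few items are not reported here. The 40 genes and the lists were chosen with earlier results of these data known, so lists are given as counts and medians with no test of their own. Alternatives were q over single-name features, other FPKM minimums, q under 0.01, the isoform tables and log2 values with a pseudocount of 1 or 0.1. The adjustment was tested on simulated data, and the realignment was checked against the log2 ratio of the FPKM values in every tested row. Python 3.11.15, pandas 2.3.3 and numpy 2.4.6 were used.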

Additional observations from a re-analysis of the deposited data

Results flagged for a closer look

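A rule on gaps within a group flagged 1 library. The 5/6Nx replicate 5 held 103.6 M reads (mega), and the next highest of the 6 libraries held 73.0 M; the gap was 0.685 of the whole range, above the critical value of 0.625. Chance flags about 1 in 20 groups for each measure, and read count, mapping and base quality were each looked at in every group. The same library had 77.2% of its reads mapped and 86.3% of its bases at quality 30 or more. Replicate 3 of 5/6Nx, which was not flagged, was lower in both, at 62.6% and 81.6%. The part of either library in the 5/6Nx values of the 40 genes was not tested, since single-library values were not analysed here.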

How the results depend on the processing

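In 1/3Nx the number of genes called higher was 26 of 34, and 17 of 30 when each gene was read from its isoform of highest mean FPKM. It was 21 of 34 with q under 0.01. Under the remaining settings it lay between 18 of 23 (mean FPKM of 5 or more) and 28 of 36 (no FPKM minimum). Cyba was the 1 gene called lower under all settings. In 5/6Nx the number called higher was 3 of 32. It became 0 of 30 with q over single-name features, with or without the FPKM minimum of 1 applied first. It was 6 of 37 with no FPKM minimum, 6 of 36 with one of 0.5, 1 of 32 with q under 0.01 and 1 of 26 from isoforms. The number called lower was 0 under every setting tried. The 3 genes added without a minimum are Fcgr2b, Msr1 and Cd80, of which Fcgr2b and Msr1 also passed with q over single-name features (q = 0.00605 and 0.0458). The median log2 fold change moved to 0.82 in 5/6Nx (1.04 as reported) and to 1.08 in 1/3Nx (1.26) with 1 added to each FPKM, which weighs low genes down, and to 1.21 in 5/6Nx with no minimum. The q settings that combine single names with the minimum, the minimums of 0.5 and on sham, and the removal of the 2 shared features were chosen after seeing the data. Leaving out each replicate was not run, because the tables hold group values. No paired analysis was possible because the tables carry no single-library columns. With 1 value per group, differences between animals are seen only through the authors' p-values, and a gene missed in 5/6Nx may still differ.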
